A study of Mus musculus with 12 samples.

Results

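The subunits of the respiratory chain and of the ATP synthase that are encoded in the nucleus were examined in mouse plantaris muscle. A gene was included when its array row carried a single symbol from the Nduf (a, b, c, s or v, with a number), Sdha to Sdhd, Uqcr, Cox4 to Cox8 or Atp5 families, pseudogenes left out. This gave 78 of the 22180 genes with such a row: 33 named for complex I, 4 of complex II, 7 of complex III, 17 of complex IV and 17 of the ATP synthase. Nuclear subunits under other symbols, such as Cyc1 of complex III, fall outside this count. Where a gene had more than 1 row, as 9 members did, the row with the highest mean was used. Expression was measured on 12 whole-transcript arrays, 3 from each of 4 groups of male mice aged 12 weeks, all kept without food for 3 hours. Wild-type and REDD1 knockout mice either stayed sedentary or were sampled 1 hour after the end of a single bout of aerobic exercise, and plantaris was taken under isoflurane from all of them. REDD1, encoded by Ddit4, is a stress-induced inhibitor of the growth-regulating kinase complex mTORC1. The labels state neither the part of Ddit4 that was deleted nor the strain or the pooling of mice, so p-values measure the spread between these 12 samples.

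The respiratory chain passes electrons from NADH (complex I) and succinate (complex II) through coenzyme Q to complex III, cytochrome c and complex IV, where oxygen is reduced. Complexes I, III and IV pump protons across the inner mitochondrial membrane, and the ATP synthase uses the resulting gradient to make ATP. Most subunits are encoded in the nucleus and some in the mitochondrial genome, and endurance training is known to raise the amount of these complexes in muscle. Transcription of the nuclear genes is known to depend on the factors NRF1, GABPA, the oestrogen-related receptors (ERR) and YY1, which work with the coactivator PGC-1alpha, the product of Ppargc1a.

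The promoters of a few members are shown, picked because they carry words that these factors are known to recognise. Ppargc1a was higher after exercise in both genotypes (values given with the other pathway genes). A link between these words and that rise was not tested. Each line gives the 100 bases before the transcription start, 5′ to 3′ on the gene's strand, from RefSeq's annotation of GRCm38.p6, with the word in capitals. The array's own genome build is not given in the sources used here. Sdhb lies on the plus strand at chr4:140961171-140961270, Atp5k on the minus strand at chr5:108434400-108434499, Ndufa11 on the plus strand at chr17:56717662-56717761, Sdhd on the minus strand at chr9:50603850-50603949 and Atp5g3 on the minus strand at chr2:73911327-73911426.
Sdhb (NRF1 word): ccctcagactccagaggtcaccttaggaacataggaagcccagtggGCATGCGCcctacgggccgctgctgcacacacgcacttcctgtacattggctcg
Atp5k (NRF1 words, overlapping): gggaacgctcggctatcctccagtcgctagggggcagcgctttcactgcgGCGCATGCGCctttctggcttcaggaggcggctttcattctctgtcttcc
Ndufa11 (NRF1 words, overlapping): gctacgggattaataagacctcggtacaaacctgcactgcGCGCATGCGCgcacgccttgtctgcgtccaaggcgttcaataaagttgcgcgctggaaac
Sdhd (GABPA word, reverse strand): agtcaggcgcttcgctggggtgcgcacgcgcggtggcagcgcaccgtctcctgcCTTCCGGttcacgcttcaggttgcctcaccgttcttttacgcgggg
Atp5g3 (ERR word, reverse strand): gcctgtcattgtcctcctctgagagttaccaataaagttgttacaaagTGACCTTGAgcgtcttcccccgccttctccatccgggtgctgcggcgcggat

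RefSeq promoters of 300 bases, 250 before and 50 after the start, were matched for 64 of the 78 members and searched on both strands. The NRF1 word GCGCATGCG was present in 8 member promoters (12.5%), against 1.95% of the promoters of all 27025 genes in the table and 2.61% of those of the 17492 protein-coding genes among them. The overlapping NRF1 word GCATGCGC was present in 10 (15.6%, against 3.05% of all and 3.94% of protein-coding genes), in Atp5g2, Atp5k, Atp5l, Cox6a1, Ndufa11, Ndufa6, Ndufa8, Sdhb, Uqcr11 and Uqcrc1. The short GABPA word CCGGAAG was present in 17 (26.6%, against 9.93% and 12.9%) and the longer CCGGAAGTG, which contains it, in Ndufs3 and Uqcrh (3.12%, against 2.25% and 3.01%). For the ERR family, AAGGTCA was present in 6 member promoters (9.38%, against 5.38% and 4.73%) and TCAAGGTCA, which contains it, in those of Atp5g3 and Sdhd (3.12%, against 0.466% and 0.377%). The YY1 word AAGATGG was present in 10 (15.6%, against 7.28% and 7.18%) and AAGATGGCG, which contains it, in 6 (9.38%, against 1.64% and 2.14%). Of these 6, Atp5j held AAGATGGCG before the transcription start, at -88. In Ndufc1, Atp5j2, Ndufa9, Ndufs7 and Ndufs4 it lay after the start, at positions 22 to 35. All these shares and positions describe letters in a window of sequence, and binding was not measured.

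Of the 78 members, 76 passed the filter on low values, which asked for a value above the table median (4.56, log2) on at least 3 arrays. The testis-type isoform genes Cox7b2 and Cox8c did not pass, with 12-array means of 2.12 and 3.36. The testis-type isoform gene Cox6b2 passed with 5 arrays above the median, and the other 75 members were above it on all 12 arrays. Levels are compared within a gene only, since probes of different genes differ in response.

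Values over the whole array were alike between samples, with Pearson's r of 0.972 to 0.992 between pairs of arrays over the 13747 genes tested. All 9 fast-fibre markers, among them Myh4 and Actn3, lay above the table median on every array. Ddit4, the targeted gene, ranged from 5.83 to 6.13 for the sedentary wild type, 8.40 to 9.05 for the exercised wild type, 5.08 to 5.44 for the sedentary knockout and 5.72 to 6.77 for the exercised knockout. It was lower in the knockout without overlap within each condition. By limma the difference was called in exercised mice (-2.37, SE 0.22, adjusted p = 0.00011) and not in sedentary mice (-0.71, SE 0.22, adjusted p = 0.411). In the knockout Ddit4 rose after exercise by 1.04 (SE 0.22, adjusted p = 0.0679), which was not called. The difference of its exercise effects, -1.66 (SE 0.31), was not called either (adjusted p = 0.633). Knockout sedentary replicate 3 stood apart, with 7 extracellular matrix and fibroblast markers 1.09 above their 12-array mean (log2), against -0.32 to 0.15 on the other 11 arrays.

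The members' median pooled within-group SD was 0.125 on the log2 scale (range 0.0423 to 0.321), against 0.163 for all genes tested, whose median level was lower (6.19, against 9.74 for the members). Over the 12 arrays Ndufa4, a small subunit first assigned to complex I and now placed in complex IV, had an SD of 0.0528 and ranged from 11.89 to 12.05. The members with the largest SD over the 12 arrays were Cox7c (0.308), Cox4i2 (0.288), Cox6b2 (0.264), Cox5b (0.256) and Ndufa12 (0.246). Cox5b, a subunit on the matrix side of complex IV, read 10.40, 10.90 and 10.37 for the sedentary wild type, 10.42, 10.84 and 10.96 for the exercised wild type, 10.69, 10.77 and 10.24 for the sedentary knockout, and 10.94, 10.72 and 10.91 for the exercised knockout. Its groups overlapped throughout. An unused row of Cox5b had a 12-array mean of 5.07, against 10.68 for the row used. Whether both rows read the same transcript was not tested. Ndufa12, an accessory subunit of complex I, stayed between 8.40 and 8.70 on 11 arrays and read 7.77 in knockout sedentary replicate 3. An unused row of Ndufa12 had a mean of 6.54, against 8.48 for the row used. Cox7c ranged from 4.602 to 5.81 and Cox6b2 from 4.25 to 5.03, with overlapping groups.

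For the members together, and for complexes I, III and IV and the ATP synthase, the widest spread was within the knockout sedentary group. As the mean difference of the 76 members from their 12-array means, the level was -0.01, 0.09 and -0.02 for the sedentary wild type, 0.01, -0.01 and 0.09 for the exercised wild type, 0.07, -0.10 and -0.20 for the sedentary knockout and 0.09, -0.05 and 0.03 for the exercised knockout (log2). The knockout sedentary mice thus held both an array near the top and the 2 lowest arrays of the 12. On knockout sedentary replicate 3, 72 of 76 members lay below their 12-array mean and 40 had their lowest value of all arrays. In replicate 2 of that group 62 members lay below it, and in replicate 1 there were 18. Complex III, the cytochrome bc1 complex, had the widest range there, at 0.09, -0.16 and -0.28, followed by complex IV at 0.11, -0.04 and -0.20. The ATP synthase stood at 0.05, -0.10 and -0.20, complex I at 0.07, -0.11 and -0.19 and complex II at -0.03, -0.08 and -0.19. Complex II differed from the other complexes on some arrays, as on wild-type sedentary replicate 1, where it stood at 0.13 and the others between -0.06 and 0.04. On the 3 knockout sedentary arrays the slow-fibre markers stood at -0.24, -0.62 and 0.61, the macrophage and leukocyte markers at 0.16, -0.20 and 0.39, the extracellular matrix markers at 0.15, -0.25 and 1.09 and the fast-fibre markers at 0.04, -0.02 and -0.06. The part of these other cells and fibre types in the subunit levels was not tested. In whole muscle, fewer cells of a type and less RNA per cell cannot be told apart.

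**Figure D1:**
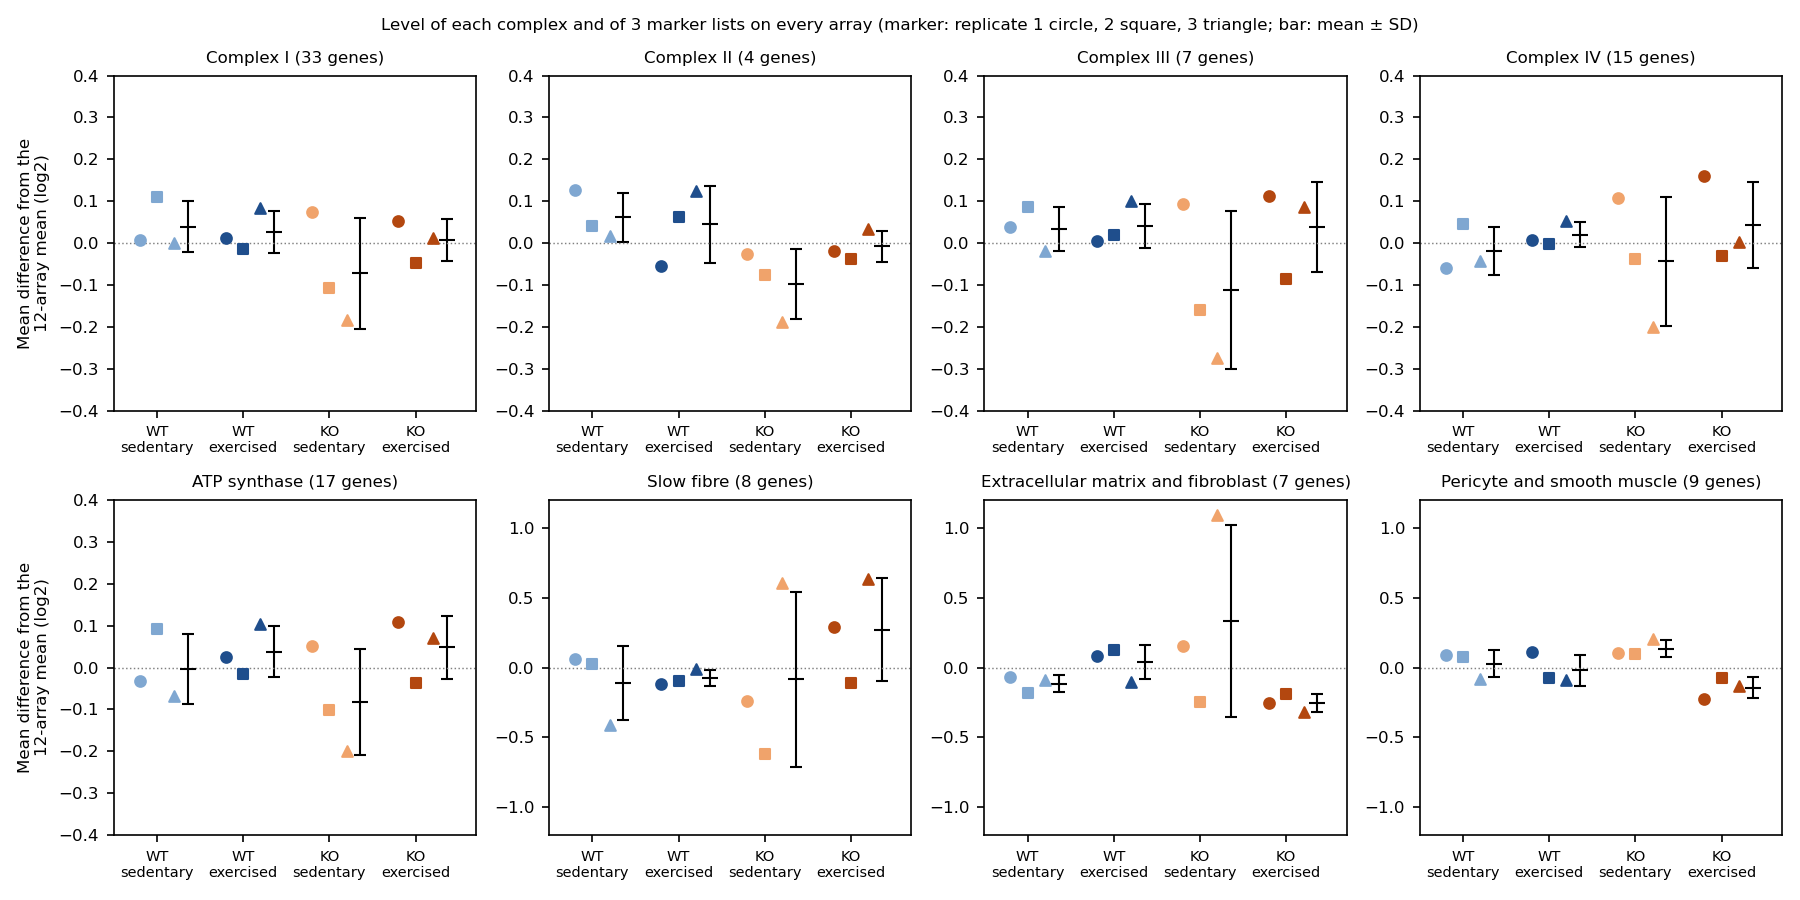
The vertical axis gives, for each array, the mean log2 difference of a complex's members (5 panels) or of a marker list (3 panels) from their 12-array mean, with the 4 groups along the horizontal axis. WT is wild type, KO is knockout, points are replicates 1 to 3 and bars are mean ± SD. In knockout sedentary replicate 3 (triangle) the 5 complexes lie between -0.28 and -0.19, and the extracellular matrix markers lie at 1.09.

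In wild-type muscle the first question was whether the subunit transcripts had moved 1 hour after exercise, and little movement was seen. Of the 76 members tested, 45 were higher and 31 lower in exercised mice, with a median log2 difference of 0.02, against -0.02 for all genes tested. By limma's test adjusted over all genes by Benjamini-Hochberg, 0 of 76 members were called, while 0.567% of all genes were, and the smallest adjusted p was 0.519. At an unadjusted p under 0.05, 1 member passed (1.32%), against 8.21% of all genes. An analysis of variance without moderation also called 0 members. The 95% confidence intervals of all 76 members lay within 1 log2 unit, a 2-fold change, of 0, and those of 70 lay within 0.5. By complex, the medians were 0.00 for complex I, -0.02 for complex II, 0.03 for complex III, 0.07 for complex IV and 0.03 for the ATP synthase. The sign of the overall median rested on single arrays: it was -0.02 without wild-type exercised replicate 3 and -0.00 without wild-type sedentary replicate 3.

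Single members of the core machinery were close between these groups. Ndufs1, the large iron-sulphur subunit of complex I, read 10.27, 10.29 and 10.23 for the sedentary wild type and 10.11, 10.36 and 10.37 for the exercised wild type. The groups overlapped, with a difference of 0.01 (SE 0.09). Ndufv1, which holds the NADH-binding site, differed by -0.04 (SE 0.09). Atp5b, the catalytic beta subunit of the ATP synthase, read 12.85, 12.89 and 12.86 against 12.86, 12.83 and 12.92, a difference of 0.00 (SE 0.06, 95% interval -0.12 to 0.13). Atp5a1, the alpha subunit, differed by 0.01 (SE 0.07). The member with an unadjusted p under 0.05 was Ndufs5, an accessory subunit of complex I, at 5.56, 5.58 and 5.07 against 5.17, 5.06 and 4.82 (-0.39, SE 0.16, adjusted p = 0.519 by limma). Its groups overlapped, and another row of the array, not used, names Ndufs5 together with its pseudogene. Whether the probes used here also read the pseudogene was not tested. Next by p were Cox4i2 (-0.36, SE 0.17) and Ndufa4l2 (-0.26, SE 0.15), both lower after exercise, and then Ndufb6 (0.17, SE 0.10), Atp5mpl (0.24, SE 0.16) and Cox6b1 (0.16, SE 0.13), all with intervals that include 0.

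In the knockout most members were on the higher side after exercise, with small differences. After exercise 68 of 76 members were higher and 8 lower (89.5% higher), with a median of 0.11, against 49.4% higher and a median of -0.00 for all genes tested. All 17 ATP synthase members and all 7 complex III members were on the higher side, with medians of 0.12 and 0.14. Complex I had 29 of 33 higher (median 0.09), complex II 3 of 4 (0.12) and complex IV 12 of 15 (0.11). By limma, 0 of 76 were called, against 0.276% of all genes, and the smallest adjusted p was 0.41. At an unadjusted p under 0.05, 4 members passed (5.26%, against 8.93% of all genes), and analysis of variance called 0. All 76 intervals lay within 1 log2 unit of 0 and 63 within 0.5. Members share their arrays, so 68 genes on one side are not 68 separate observations. In the same comparison 8 of 8 slow-fibre markers were higher (median 0.36), and 6 of 7 extracellular matrix markers (median -0.53) and 7 of 8 macrophage and leukocyte markers (-0.17) were lower, with 0 called in each list. Their part in the subunit values was not tested. Without knockout sedentary replicate 3 the subunit median was 0.06 and 53 members were higher, and without knockout sedentary replicate 1 the median was 0.17. After quantile normalisation the median was 0.07, with 59 members higher.

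For 4 members the unadjusted p of the exercise difference within the knockout was below 0.05, and on the lower side these were Cox4i2 (-0.38, SE 0.17) and Ndufa4l2 (-0.32, SE 0.15), and on the higher side were Ndufb5 and Ndufa1. Ndufb5, an accessory membrane-arm subunit of complex I, read 9.24, 9.17 and 9.06 in sedentary and 9.49, 9.43 and 9.25 in exercised arrays. The groups did not overlap, but the difference of 0.23 (SE 0.09, 95% interval 0.04 to 0.43) did not pass the test (adjusted p = 0.41 by limma). Without knockout sedentary replicate 3 it was 0.19 (SE 0.10). Ndufa1, another small membrane-arm subunit of complex I, read 9.45, 9.23 and 9.001 against 9.61, 9.34 and 9.53, with overlap and a difference of 0.27 (SE 0.12). Next by p were Uqcrq and Cox6b1. Uqcrq, a small subunit of complex III, read 5.70, 5.24 and 5.36 against 5.99, 5.43 and 5.85. The Uqcrq groups overlapped, and the difference was 0.32 (SE 0.15). Cox6b1, which links the 2 monomers of complex IV on the intermembrane side, differed by 0.27 (SE 0.13). For Atp5b the knockout difference was 0.07 (SE 0.06), from 12.78, 12.78 and 12.67 to 12.79, 12.84 and 12.83. These Atp5b groups did not overlap, and the gap between them was less than 0.01.

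**Figure D2:**
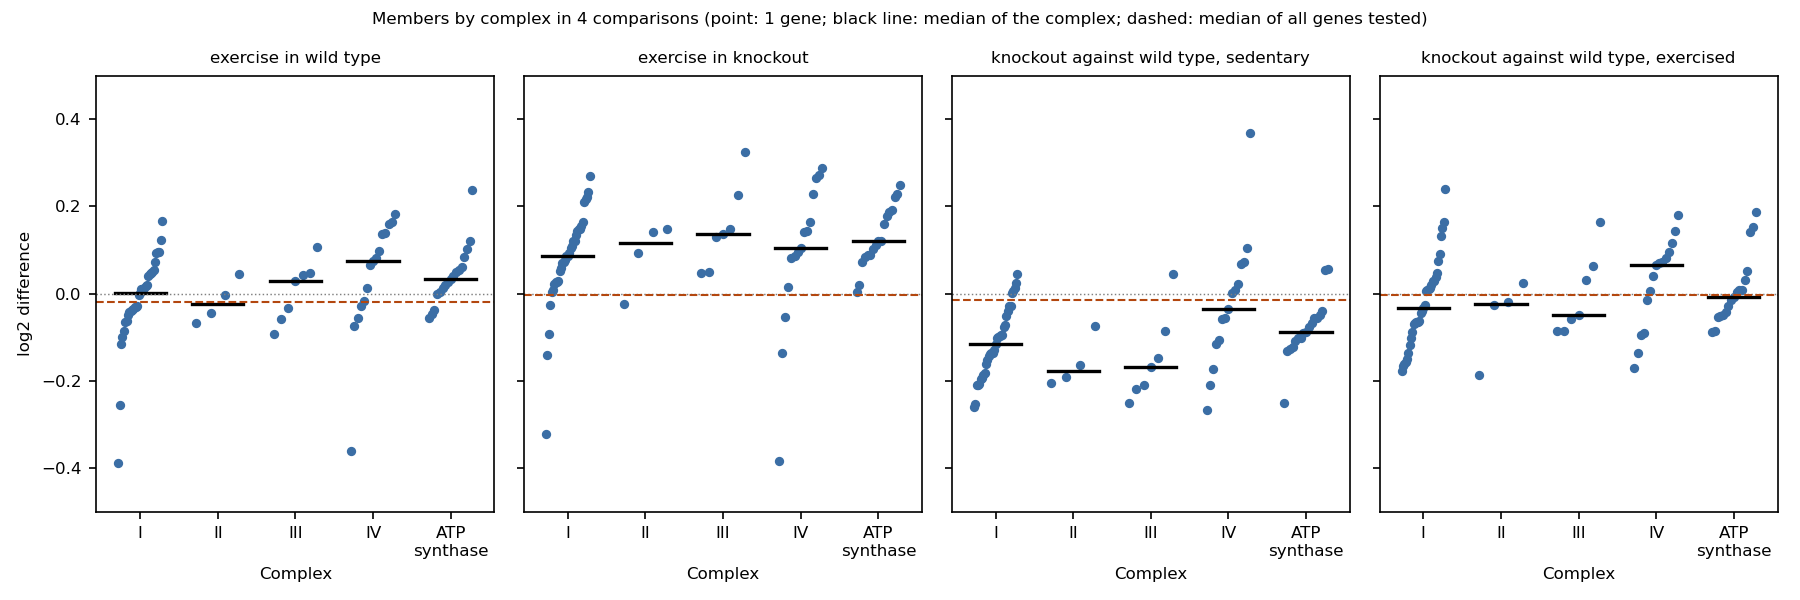
Each point is the log2 difference of 1 member gene in 1 of 4 comparisons, grouped by complex along the horizontal axis. Black lines are the medians of the complexes and the dashed line is the median of all genes tested. The medians lie between -0.02 and 0.07 for exercise in wild type, between 0.09 and 0.14 for exercise in the knockout, and between -0.18 and -0.03 for knockout against wild type in sedentary mice.

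The difference between these exercise effects, knockout minus wild type, was then tested directly. It was positive for 65 of 76 members (85.5%, against 53.2% of all genes), with a median of 0.10, against 0.02 for all genes. By limma 0 members were called, and 0% of all 13747 genes were. At an unadjusted p under 0.05, 1 member passed (1.32%, against 4.51% of all genes), and analysis of variance called 0 members. That member was Ndufa1, at 0.38 (SE 0.17, 95% interval 0.02 to 0.75, adjusted p = 0.997). Next came Sdha, the flavoprotein subunit of complex II, at 0.22 (SE 0.11), Uqcr11 of complex III at 0.24 (SE 0.13), Cox7a2l, a factor that joins complex III and complex IV in supercomplexes, at 0.24 (SE 0.14), Uqcrc2 at 0.19 (SE 0.11) and Ndufa13 at 0.19 (SE 0.12). In the same difference 7 of 8 slow-fibre markers were positive (median 0.36), and 7 of 7 extracellular matrix markers (-0.54) and 8 of 8 macrophage and leukocyte markers (-0.25) were negative, and their part was not tested. Intervals of the members were wider here, with 55 of 76 within 0.5 of 0 and the farthest bound at 0.92. The subunit median was 0.03 without knockout sedentary replicate 3, with 48 members positive, and 0.05 without wild-type sedentary replicate 2. It was 0.16 without knockout sedentary replicate 1, and 0.05 with 52 positive after quantile normalisation. A difference between genotypes in the response of a subunit was thus not detectable with these arrays.

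Averaged over genotypes, with 6 arrays a side, 63 of 76 members were higher after exercise (82.9%, against 45.7% of all genes) and the median was 0.06, against -0.01. By limma 0 members were called, against 1.6% of all genes, and the smallest adjusted p was 0.205. Unadjusted, 6 members had a p under 0.05 (7.89%, against 11.2% of all genes), and analysis of variance called 0. On the higher side these were Cox6b1 (0.22, SE 0.09), Ndufb5 (0.14, SE 0.06) and Atp5mpl, a small subunit of the ATP synthase (0.24, SE 0.11), and on the lower side Cox4i2, Ndufa4l2 and Ndufs5. The intervals of 73 of 76 members lay within 0.5 of 0, and the farthest bound of any member was 0.64. Complex III had 7 of 7 members higher (median 0.05), complex IV 13 of 15 (0.08), the ATP synthase 15 of 17 (0.08), complex I 25 of 33 (0.04) and complex II 3 of 4 (0.05). Without knockout sedentary replicate 3 and wild-type exercised replicate 1 together, 52 members were higher and the median was 0.03.

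**Figure D3:**
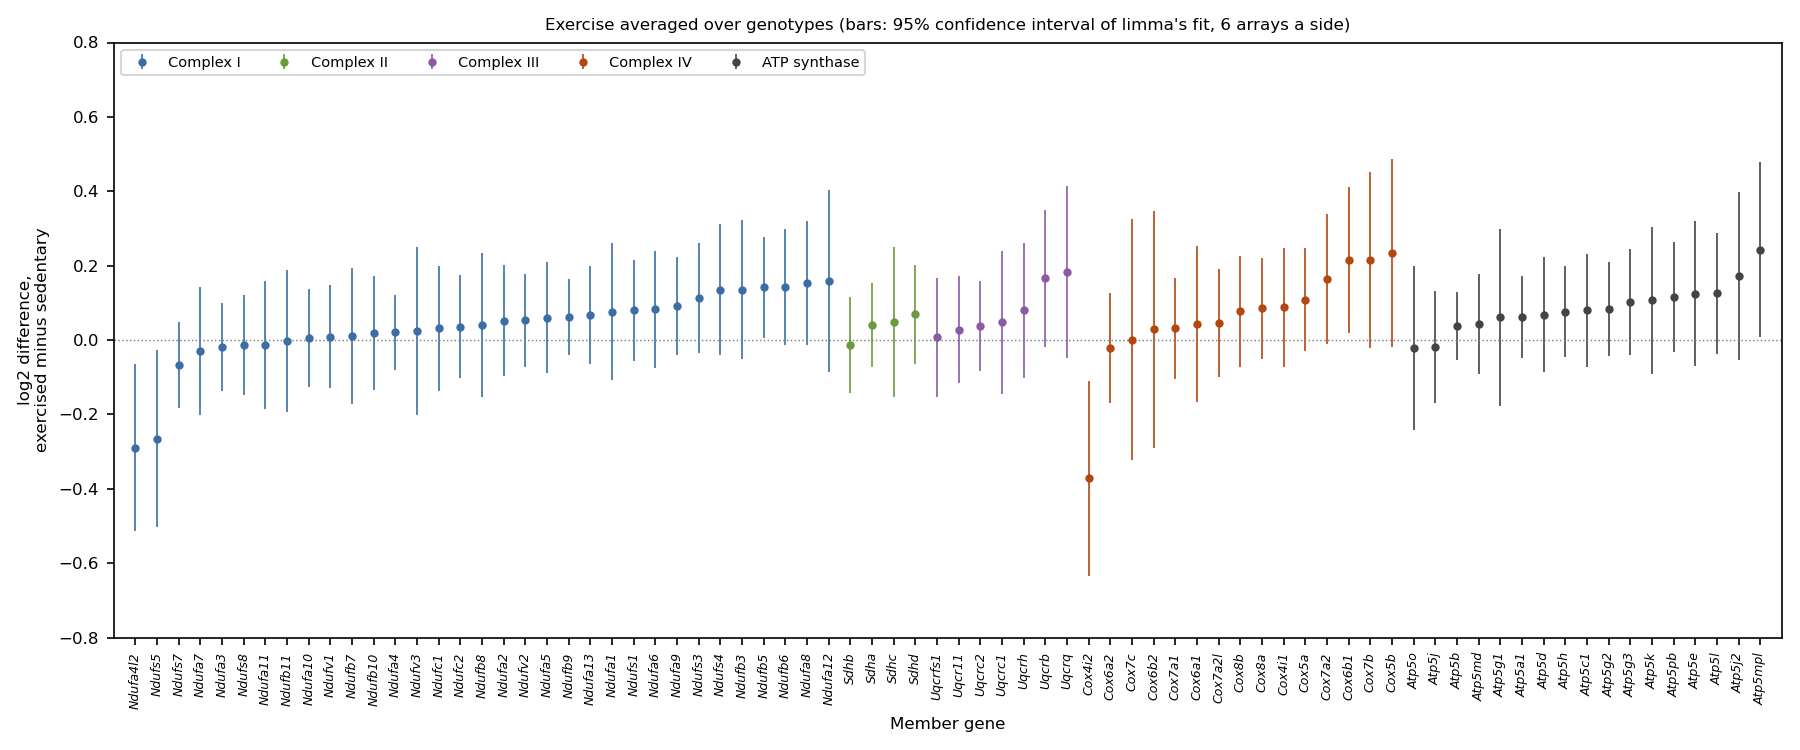
Each point is the log2 difference of a member between exercised and sedentary mice, averaged over genotypes, with its 95% confidence interval from limma, ordered by complex and by value along the horizontal axis. Most intervals include 0, and Cox4i2 at -0.37 and Ndufa4l2 at -0.29 lie farthest below it, followed by Ndufs5 at -0.27.

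Cox4i2 and Ndufa4l2 are the hypoxia-inducible relatives of Cox4i1 and Ndufa4, and both are known to be strong in pericytes and vascular smooth muscle. Cox4i2 read 5.36, 5.57 and 5.43 for the sedentary wild type and 4.77, 5.42 and 5.08 for the exercised wild type, then 5.79, 5.59 and 5.29 for the sedentary knockout and 5.31, 5.29 and 4.91 for the exercised knockout. Exercised means were lower in both genotypes, with overlap in each. The average difference was -0.37 (SE 0.12, 95% interval -0.64 to -0.11) and did not pass (adjusted p = 0.205 by limma, 0.0854 to 0.416 over the alternatives). For wild type Ndufa4l2 read 6.86, 6.48 and 6.79 against 6.32, 6.55 and 6.50, and for the knockout it read 6.95, 6.37 and 6.51 against 6.21, 6.45 and 6.21. Its average difference was -0.29 (SE 0.10, 95% interval -0.51 to -0.07), with overlap in both genotypes and an adjusted p of 0.271. Of their relatives, Cox4i1, the form of most tissues, differed by 0.09 (SE 0.07) and Ndufa4 by 0.02 (SE 0.05).

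Vascular markers are given beside Cox4i2 and Ndufa4l2, and 3 of 17 were called in the exercise average. All 9 pericyte and smooth muscle markers, a list added after the data had been seen, lay above the table median on every array. They were lower after exercise for 9 of 9 in the knockout (median -0.26, against -0.00 for all genes) and 5 of 9 in wild type (median -0.08, against -0.02). Their mean level was 0.09, 0.08 and -0.08 for the sedentary wild type, 0.11, -0.08 and -0.09 for the exercised wild type, 0.10, 0.10 and 0.21 for the sedentary knockout and -0.22, -0.08 and -0.13 for the exercised knockout. On wild-type exercised replicate 1 Cox4i2 and Ndufa4l2 had their lowest wild-type values. The mean level of the pericyte and smooth muscle list was the highest of the wild-type arrays there, but its genes were split. Acta2 (10.30), Myh11 (8.19) and Tagln (7.99) had their highest wild-type values on that array. Abcc9 (10.635), Rgs5 (10.83) and Notch3 (5.82) had their lowest, and Cspg4, Kcnj8 and Pdgfrb lay in between. Notch3, a receptor of vascular smooth muscle and pericytes, fell on average by 0.46 (SE 0.11, adjusted p = 0.0475 by limma) and was the 1 of 9 called, against 1.6% of all genes. The Notch3 call lay at the threshold. It was lost by analysis of variance (adjusted p = 0.223), and by limma with no filter (0.0715) or without an intensity trend (0.0664). It was also lost without any 1 array (adjusted p 0.0597 to 0.127 by limma) but wild-type exercised replicate 2 or knockout exercised replicate 2. The mean level of the 8 endothelial markers ranged from 0.08 to 0.18 on sedentary and from -0.26 to -0.03 on exercised arrays. In the average 7 of 8 were lower, and Flt1 was higher. Kdr, the main VEGF receptor of endothelium, fell by 0.80 (SE 0.09, adjusted p = 9.27e-05) and Cdh5, the endothelial cadherin, by 0.28 (SE 0.07, adjusted p = 0.0448). Kdr was called under all alternatives run. The Cdh5 call was lost by analysis of variance (adjusted p = 0.11), and by limma with no filter (0.0613), without an intensity trend (0.0911) or with robust moderation (0.0501). It was also lost without any 1 array (adjusted p 0.0557 to 0.124 by limma) but wild-type sedentary replicate 3. The part of vascular cells in the values of Cox4i2 and Ndufa4l2 was not tested. Without these 2 genes the level of the other 74 members was -0.01, 0.09 and -0.03 for the sedentary wild type, 0.02, -0.01 and 0.09 for the exercised wild type, 0.06, -0.10 and -0.21 for the sedentary knockout and 0.10, -0.04 and 0.04 for the exercised knockout.

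Between genotypes, sedentary knockout muscle gave lower values than sedentary wild-type muscle for most members. Here 61 of 76 were lower (80.3%, against 54.0% of all genes) and the median was -0.10, against -0.02. All 4 complex II members were lower (median -0.18), as were 6 of 7 of complex III (-0.17), 28 of 33 of complex I (-0.11) and 15 of 17 of the ATP synthase (-0.09), while complex IV was split, with 8 of 15 lower (-0.03). By limma 0 members were called, against 0.138% of all genes, and the smallest adjusted p was 0.422. At an unadjusted p under 0.05, 7 members passed (9.21%, against 7.7% of all genes), and analysis of variance called 0. All 76 intervals lay within 1 log2 unit of 0 and 69 within 0.5. The size of the shift rested on single arrays: the median was -0.04 without knockout sedentary replicate 3 (27 members higher in place of 15), -0.17 without knockout sedentary replicate 1 (3 higher) and -0.06 without wild-type sedentary replicate 2 (22 higher). The extracellular matrix markers, highest on knockout sedentary replicate 3, were higher in the sedentary knockout for 7 of 7, with a median of 0.33, and the macrophage and leukocyte markers for 8 of 8 (0.18). Their part in the lower subunit values was not tested.

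The members with the smallest p in sedentary mice included core parts of complexes I to III. Uqcrc2, a core protein of complex III, had wild-type values of 11.29, 11.25 and 11.25 against 11.09, 11.06 and 10.90 for the knockout. The groups did not overlap, and the difference was -0.25 (SE 0.08, 95% interval -0.42 to -0.08, adjusted p = 0.422 by limma, -0.19 without knockout sedentary replicate 3). Ndufs1 read 10.27, 10.29 and 10.23 against 9.95, 10.07 and 10.02, without overlap. The Ndufs1 difference was -0.25 (SE 0.09, 95% interval -0.44 to -0.06) and was also -0.25 without knockout sedentary replicate 3. Sdha read 11.50, 11.46 and 11.34 against 11.26, 11.33 and 11.14, again without overlap (-0.19, SE 0.07). The complex I accessory subunits Ndufa9 and Ndufa10 both differed by -0.21 (SE 0.09), Ndufa9 without overlap. Cox7a2, the form of a small complex IV subunit found in many tissues, read 9.50, 9.86 and 9.71 against 9.63, 9.36 and 9.27. The Cox7a2 groups overlapped, and the difference was -0.27 (SE 0.12). The other complex II genes gave -0.16 (SE 0.09) for Sdhb, the iron-sulphur subunit, and -0.21 (SE 0.13) and -0.07 (SE 0.09) for the membrane anchors Sdhc and Sdhd. Of complex III, Uqcrfs1, the Rieske iron-sulphur protein, gave -0.17 (SE 0.11) and Uqcrc1, the partner of Uqcrc2, gave -0.08 (SE 0.13).

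**Figure D4:**
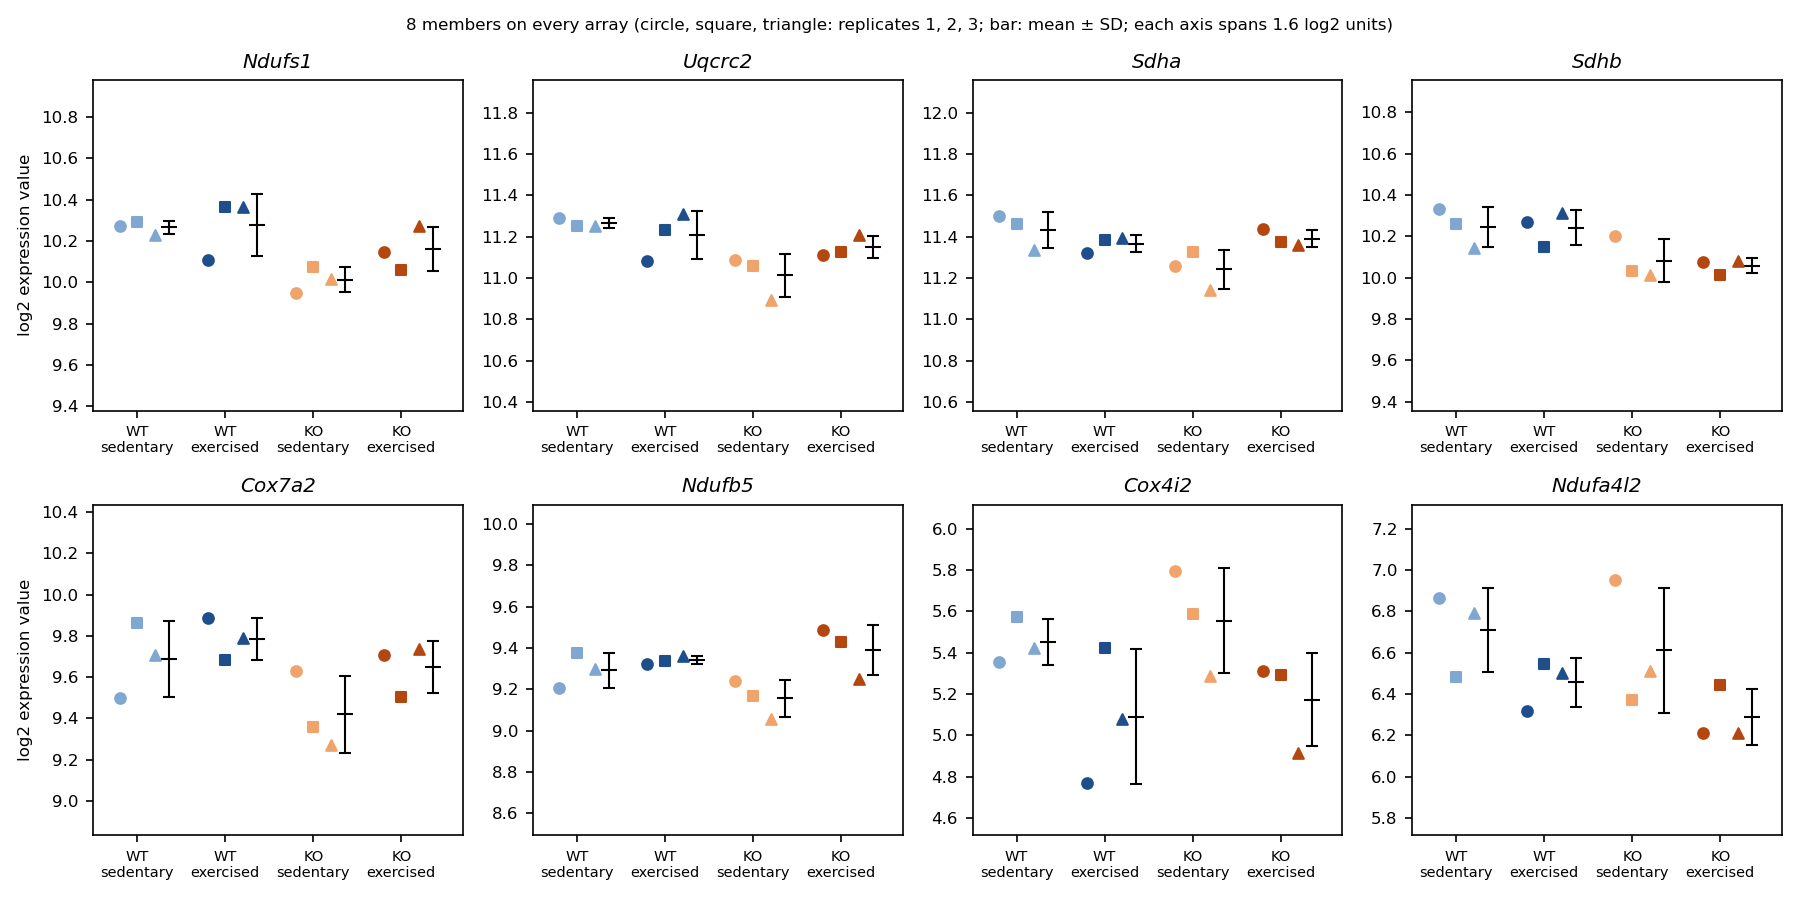
Log2 expression values of 8 members on every array, by group, with points for replicates 1 to 3 and bars for mean ± SD. Each vertical axis spans 1.6 log2 units. Ndufs1, Uqcrc2 and Sdha are lower without overlap in the knockout sedentary than in the wild-type sedentary arrays, Sdhb is lower without overlap in the knockout exercised than in the wild-type exercised arrays, and Cox4i2 and Ndufa4l2 overlap between sedentary and exercised arrays.

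After exercise the median difference between genotypes was smaller than in sedentary mice, but the difference of exercise effects was not called for any member. Of 76 members, 37 were higher and 39 lower in the exercised knockout (51.3% lower, against 50.7% of all genes), with a median of -0.01, against -0.00 for all genes. The sign of this median was not stable: it was 0.02 with each array centred on its median, 0.03 without knockout exercised replicate 2 and 0.02 without wild-type exercised replicate 3. By limma 0 members were called, against 0.175% of all genes (smallest adjusted p = 0.746). At an unadjusted p under 0.05, 1 member passed (1.32%, against 6.58% of all genes), and analysis of variance called 0. That member was Sdhb, with wild-type values of 10.27, 10.15 and 10.31 against 10.08, 10.02 and 10.08 for the knockout. The Sdhb groups did not overlap, with a difference of -0.19 (SE 0.09, 95% interval -0.37 to -0.00). Next by p were Ndufa1 (0.24, SE 0.12), Ndufs7, an iron-sulphur core subunit of complex I (-0.15, SE 0.08), Atp5l, the g subunit of the ATP synthase (0.19, SE 0.11), Ndufa3 of complex I (0.13, SE 0.08) and Cox6a2, the heart and skeletal muscle form of a complex IV subunit (0.14, SE 0.10). Atp5l and Ndufa3 were higher without overlap. The intervals of 72 of 76 members lay within 0.5 of 0 and the farthest bound was 0.55. Among the markers, 6 of 8 slow-fibre genes were higher in the exercised knockout (median 0.37). On the lower side were 5 of 7 extracellular matrix markers (-0.40), 5 of 8 macrophage and leukocyte markers (-0.11) and 6 of 6 fat markers (-0.23). In each of these lists 0 were called, and their part in the subunit values was not tested.

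Averaged over both conditions, 59 of 76 members were lower in the knockout (77.6%, against 52.6% of all genes), with a median of -0.06, against -0.01. By limma 0 were called, against 0.546% of all genes, and the smallest adjusted p was 0.314. Unadjusted, 8 members had a p under 0.05 (10.5%, against 9.36% of all genes), and analysis of variance called 0. The smallest p belonged to Ndufs1, at -0.19 (SE 0.06, 95% interval -0.32 to -0.05), whose adjusted p ran from 0.0678 to 0.562 over the alternatives. Then came Sdhb (-0.17, SE 0.06), Uqcrc2 (-0.16, SE 0.06), Ndufa9 (-0.15, SE 0.06), Cox7a2 (-0.20, SE 0.08) and Ndufs7 (-0.12, SE 0.05). Ndufa10 (-0.14, SE 0.06) and the membrane-arm subunit Ndufa11 (-0.18, SE 0.08) were the others of the 8. The median of the members was -0.03 without knockout sedentary replicate 3, and also -0.03 without knockout exercised replicate 2 or wild-type sedentary replicate 2. The intervals of 75 of 76 members lay within 0.5 of 0.

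Several complex IV subunits exist in a form found in many tissues and a form of heart and skeletal muscle, and neither kind passed a test. For exercise averaged over genotypes, the muscle forms Cox6a2, Cox7a1 and Cox8b differed by -0.02 (SE 0.07), 0.03 (SE 0.06) and 0.08 (SE 0.07). Their counterparts Cox6a1, Cox7a2 and Cox8a differed by 0.04 (SE 0.10), 0.16 (SE 0.08) and 0.09 (SE 0.06). Cox7a2l differed by 0.04 (SE 0.07), and Cox5a, a matrix-side subunit, by 0.11 (SE 0.06). In the genotype average Cox6a2 was at 0.11 (SE 0.07), Cox7a1 at -0.01 (SE 0.06) and Cox8b at 0.01 (SE 0.07), against -0.07 (SE 0.10) for Cox6a1, -0.20 (SE 0.08) for Cox7a2 and -0.01 (SE 0.06) for Cox8a. Subunit c, which forms the rotor ring of the ATP synthase, is made from Atp5g1, Atp5g2 and Atp5g3. The 3 genes gave similar exercise differences of 0.06 (SE 0.11), 0.08 (SE 0.06) and 0.10 (SE 0.07), with intervals that include 0. Atp5g1 read 6.07, 6.19 and 5.83 for the sedentary wild type, 5.87, 5.91 and 6.20 for the exercised wild type, 6.26, 5.88 and 5.79 for the sedentary knockout and 6.43, 6.02 and 5.95 for the exercised knockout, with overlap throughout.

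Among the regulators that act on these genes, Ppargc1a rose in both genotypes. It read 9.33, 8.98 and 9.24 for the sedentary wild type and 10.15, 10.46 and 10.88 for the exercised wild type, then 8.70, 9.61 and 9.29 for the sedentary knockout and 10.75, 11.003 and 10.95 for the exercised knockout. No sedentary array overlapped an exercised array. The rise was 1.31 (SE 0.20, adjusted p = 0.00429 by limma) in wild type and 1.70 (SE 0.20, adjusted p = 0.001) in the knockout, and the difference of the rises, 0.39 (SE 0.28), did not pass (adjusted p = 0.997). Analysis of variance ended the call within each genotype (adjusted p = 0.172 and 0.128), while the average of 1.51 was called under all alternatives run (adjusted p up to 0.02). Ppara, a nuclear receptor of fatty acid oxidation genes, rose on average by 0.44 (SE 0.09, adjusted p = 0.0245), a call near the threshold. It was lost by analysis of variance (adjusted p = 0.146) and without any 1 of 7 arrays: wild-type sedentary replicates 1 and 2, wild-type exercised replicates 2 and 3, knockout sedentary replicate 3 and knockout exercised replicates 2 and 3 (adjusted p 0.0577 to 0.0769 by limma). Of the 16 regulators, Ppargc1a and Ppara were the 2 called in the exercise average, against 1.6% of all genes. In sedentary mice 14 of 16 were lower in the knockout, with a median of -0.13 and 0 called, against 54.0% lower, a median of -0.02 and 0.138% called for all genes. Of these, the mitochondrial transcription factor Tfam was at -0.31 (SE 0.13) and Perm1, a muscle regulator of oxidative genes, at -0.30 (SE 0.12), each with an unadjusted p under 0.05.

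Coenzyme Q carries electrons from complexes I and II to complex III. Coq10b, which encodes a coenzyme Q binding protein, read 6.34, 6.88 and 6.89 for the sedentary wild type and 8.18, 7.80 and 8.04 for the exercised wild type. In the knockout it read 6.88, 6.48 and 6.93 in sedentary and 8.02, 7.95 and 8.02 in exercised arrays. Coq10b rose without overlap by 1.30 (SE 0.16, adjusted p = 0.000959 by limma), a 2.46-fold change, in wild type and by 1.23 (SE 0.16, adjusted p = 0.00159) in the knockout. Analysis of variance ended both calls (adjusted p = 0.075 and 0.12), while the average of 1.27 was called under all alternatives run (adjusted p up to 0.0124). Coq10b was the 1 of 11 measured coenzyme Q genes called after exercise in either genotype. Of all genes, 0.567% were called in wild type and 0.276% in the knockout. Coq9, a lipid-binding protein of coenzyme Q synthesis, read 9.03, 9.07 and 9.15 for the sedentary wild type, 8.90, 9.17 and 9.25 for the exercised wild type, 8.84, 8.65 and 8.62 for the sedentary knockout and 8.72, 8.64 and 8.85 for the exercised knockout. Averaged over conditions Coq9 was lower in the knockout, without overlap in either condition, at -0.38 (SE 0.07, adjusted p = 0.0405). Coa3, a complex IV assembly factor that acts on the mitochondrially encoded COX1 protein, was likewise lower without overlap in either condition, at -0.38 (SE 0.08, adjusted p = 0.0408). In this genotype average 0.546% of all genes were called. Coa3 read 8.56, 8.85 and 8.76 for the sedentary wild type, 8.77, 8.82 and 8.85 for the exercised wild type, 8.51, 8.32 and 8.11 for the sedentary knockout and 8.47, 8.43 and 8.50 for the exercised knockout. Both calls lay near the threshold, with adjusted p from 0.00502 to 0.139 for Coq9 and from 0.00807 to 0.141 for Coa3 over the alternatives by limma or analysis of variance. Leaving out 1 array ended the Coq9 call (adjusted p 0.0683 to 0.122) for every array but wild-type exercised replicate 1, knockout sedentary replicate 1 and knockout exercised replicate 3. It ended the Coa3 call (adjusted p 0.0709 to 0.117) for every array but replicate 1 of wild-type sedentary, wild-type exercised and knockout sedentary mice.

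**Figure D5:**
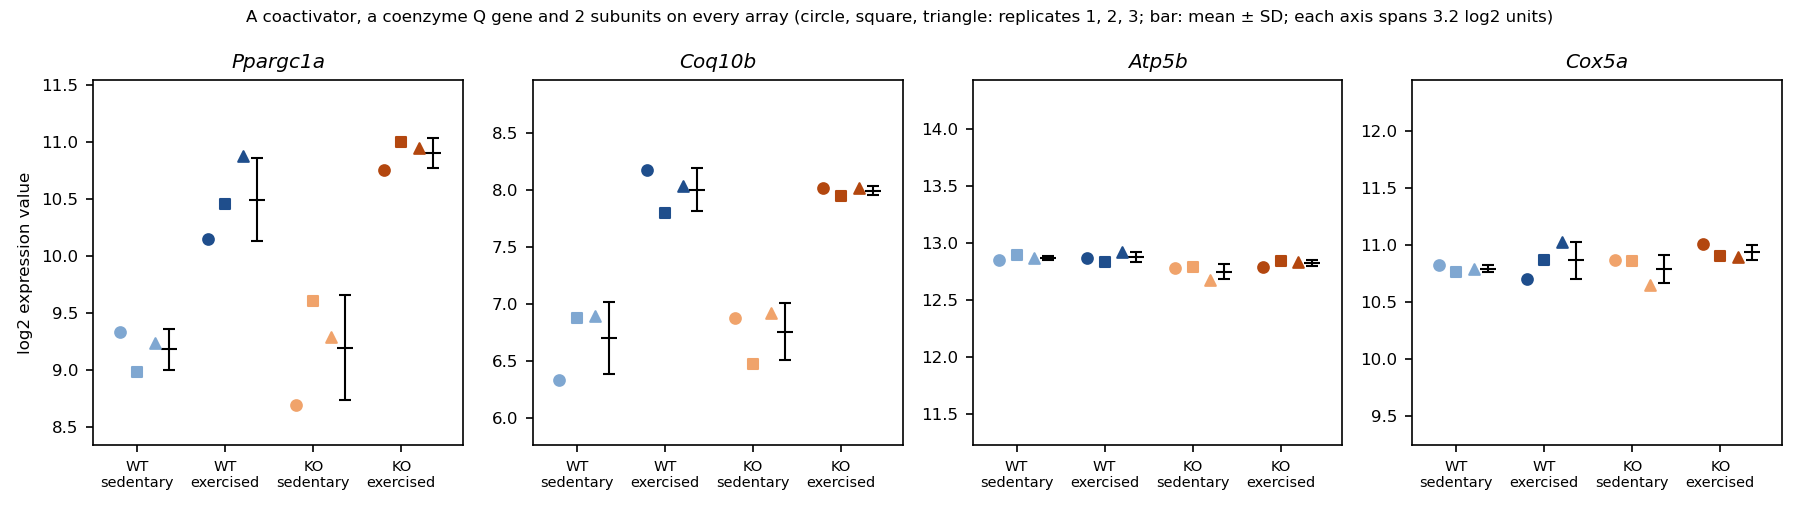
Log2 expression values of Ppargc1a, Coq10b and the subunit genes Atp5b and Cox5a on every array, by group, with points for replicates 1 to 3 and bars for mean ± SD. Each vertical axis spans 3.2 log2 units. Ppargc1a and Coq10b are higher on all exercised than on all sedentary arrays of both genotypes, by averages of 1.51 and 1.27, and Atp5b and Cox5a differ by averages of 0.04 and 0.11.

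The remaining pathway lists held no other called gene. The 10 measured subunits encoded in the mitochondrial genome were all higher after exercise in wild type (median 0.07, against 45.0% of all genes higher) and in the knockout (0.09, against 49.4%), with 0 of 10 called in either by limma. In the exercise average ND6 of complex I was at 0.20 (SE 0.10) and ND3 at 0.08 (SE 0.05). Unlike most nuclear members, 9 of these 10 were higher in the sedentary knockout than in the sedentary wild type (median 0.04, 0 called), against 46.0% of all genes. This contrast between the genomes was not tested. The levels of these mitochondrially encoded subunits overlapped between the genotypes. They were -0.14, 0.085 and -0.14 on the wild-type sedentary arrays and -0.03, 0.10 and -0.14 on the knockout sedentary arrays. Of 13 measured citric acid cycle genes, all 13 were lower in the sedentary knockout (median -0.14, 0 called), where 54.0% of all genes were lower (median -0.02), among them Idh2 (-0.35, SE 0.13) and Fh1 (-0.22, SE 0.09). The assembly factors were also mostly lower there: 12 of 14 for complex I (median -0.19), 4 of 4 for complex II (-0.13), 6 of 6 for complex III (-0.15), 13 of 17 for complex IV (-0.14) and 3 of 3 for the ATP synthase (-0.17), with 0 called. Bcs1l, which inserts the Rieske protein into complex III, was at -0.34 (SE 0.10, adjusted p = 0.318) and Ndufaf5, a complex I assembly factor, at -0.39 (SE 0.11, adjusted p = 0.318). Of the 8 other nuclear genes, which include cytochrome c, 7 were lower (median -0.09, 0 called). Among these 7 was Cyc1, a complex III subunit outside the member rule, at -0.29 (SE 0.15) with overlapping groups. In the exercise average Cycs, the somatic cytochrome c gene, was at 0.17 (SE 0.08, adjusted p = 0.431).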

How the data were processed

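The authors deposited 1 table of log2 expression values per transcript cluster for 12 arrays. Its values run from 0.357 to 13.86 with no missing value, and the log2 scale is read from that range. The submitters' processing notes name Partek, and the background correction, normalisation, log base and array build are not given in the sources used here. The platform annotation gave 1 symbol to 23521 of 41345 rows, several to 1814 and none to 16010. Rows with several symbols were left out, 10 of which name a respiratory chain or ATP synthase gene. The row with the highest mean stood for each of 22180 genes. A gene was tested if it exceeded the table median (4.56) on at least 3 arrays, which left 13747 genes.

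All 12 arrays entered a single fit of 4 group means in limma 3.58.1 (R 4.3.3; lmFit, eBayes with an intensity trend). From it came 7 comparisons, with two-sided p-values adjusted by Benjamini-Hochberg over all genes tested within each, and genes called at an adjusted p under 0.05. The fit was checked on simulated data. Differences are log2, exercised minus sedentary or knockout minus wild type, with limma's standard error (SE) and 95% confidence interval, for 3 arrays a group or 6 a side. Lists have no test and are described by counts and medians. A list's level per array averages its genes' differences from their own 12-array means. Named genes are, per comparison, members called or filled to 6 by smallest p, the 5 with the largest SD, those that failed the filter, a set chosen by role, and in pathway lists the called genes or up to 2 with the smallest p. Members, lists and tests were chosen with earlier results of these data known. RefSeq promoters were matched by gene ID. The number of arrays limits the precision.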

Additional observations from a re-analysis of the deposited data

How the results depend on the processing

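The fit was repeated under 23 alternatives: no filter or a stricter filter, median centring, quantile normalisation, no intensity trend, robust moderation, analysis of variance, array weights, the mean of all rows of a gene, only the groups compared, each array left out, and knockout sedentary replicate 3 left out with wild-type exercised replicate 1. No member was called in any of the 7 comparisons under any of them. Of 948 median values by complex, 942 moved by less than the spread between replicates. That spread, the pooled within-group SD of the level per array, was 0.0855 for all members and 0.0978 for complex IV. It was as large as many of the medians, so a median could change sign and still count as unmoved. In sedentary mice the complex IV genotype median of -0.03 ran from -0.09 to 0.02. In wild type the exercise median of all members, 0.02, ran from -0.02 to 0.05. The 6 values that moved farther concerned 3 of these medians. For the difference of exercise effects, the complex II median of 0.12 was between 0.022 and 0.15 when 1 array was left out (lowest without wild-type exercised replicate 1) and -0.021 without both arrays. The complex IV median of 0.10 was between -0.025 and 0.15 (lowest without knockout sedentary replicate 3) and -0.013 without both. In exercised mice the complex II genotype median of -0.02 was between -0.10 and 0.0083, and -0.10 without both. The number of members higher in the sedentary knockout, 15, was between 3 and 27 when 1 array was left out (9 without wild-type sedentary replicate 3) and 27 without both arrays. The number higher in the genotype average, 17, was between 12 and 26, with 26 without knockout sedentary replicate 3 or wild-type sedentary replicate 2. Of 1216 values of single genes, none changed sign and 67 lost the threshold. Only results called in the fit described above could lose it, so the values of the members could not. The 67 belonged to Coq10b, Ppargc1a, Ppara, Coq9, Coa3, Notch3 and Cdh5, and 1216 is therefore not their denominator. The single genes include Notch3, Cdh5 and Kdr, for which the alternatives were chosen after seeing the data. Under analysis of variance the calls of Coq10b (adjusted p = 0.075 and 0.12) and Ppargc1a (0.172 and 0.128) within a genotype were lost. No paired analysis was possible because the labels give no replicate number that is shared between groups. The calls of Coq9 and Coa3 were also lost with no filter (0.0502 and 0.0517) and without an intensity trend (0.0721 for both), and that of Coa3 with median centring (0.0589). Those of Notch3 and Cdh5 were likewise lost with no filter and without an intensity trend, and that of Cdh5 with robust moderation. With 3 arrays a group, a difference larger than the half-width of its interval could still miss a call, because calls were adjusted over all genes. Uqcrc2 in sedentary mice, at -0.25 with an interval of -0.42 to -0.08, had an adjusted p of 0.422 by limma.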
